A study of Mus musculus with 6 samples.

Results

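Histone genes were examined in 6 RNA libraries of the proximal mouse incisor, 3 with deletion of Arid1a and 3 controls. Entries of the deposited gene table were taken where the printed symbol starts with Hist1h to Hist4h, H2af, H3f3 or H1f, which found 22 of 25703 genes. Of these, 8 carry a Hist symbol and 14 another symbol, and 6 of the 22 are pseudogenes or a non-coding RNA in the GENCODE M21 annotation. The table prints newer symbols for most histone genes (H2ac12 for Hist1h2ah, H2az1 for H2afz). A search by older symbol therefore added 51 entries, giving 73. By older symbol, 58 of the 73 are replication-dependent (57 protein coding) and 15 belong to variant histones (10 protein coding). H1f1 to H1f5 count as replication-dependent in that division, since they are the former Hist1h1 genes. Most replication-dependent entries lie in gene clusters, with 48 on chromosome 13, 7 on chromosome 3, 2 on chromosome 11 and 1 on chromosome 6.

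Histones package DNA into nucleosomes, with a core of H2A, H2B, H3 and H4 and a linker histone H1 between cores. The replication-dependent genes are made in bulk during S phase, when new DNA has to be packaged, and their mRNAs are the main ones in animal cells that end in a conserved stem-loop and not in a poly(A) tail. Variant histones such as H3.3, H2A.Z, H2A.X, macroH2A and H1.0 come from single genes outside the clusters, are mostly spliced and polyadenylated, and are deposited outside replication as well. The proximal end of the ever-growing mouse incisor holds both quiescent stem cells and fast-dividing progenitors. Arid1a encodes a subunit of the BAF chromatin remodelling complex, which moves and evicts nucleosomes.

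The stem-loop is shown because it is what separates the replication-dependent mRNAs from the polyadenylated ones. The annotated end of a gene also decides whether a read from beyond the stem-loop is counted to it. Reads from before the stem-loop can come from either form, so the kinds of annotated end do not separate these forms. The sequences below are from GENCODE M21 transcripts (mm10), 5′ to 3′ on the gene's own strand, and the capitals mark the match to the searched motif, which reads GGC, any base, CTTTT, any base, AG, any base and GCC.
Hist1h2ap: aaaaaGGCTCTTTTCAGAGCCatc
Hist1h2ao: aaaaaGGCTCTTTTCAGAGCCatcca
Hist1h4m: ctaaaGGCCCTTTTCAGGGCCatc
H1f2: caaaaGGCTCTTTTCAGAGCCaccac
H4c9: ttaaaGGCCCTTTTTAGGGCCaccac
H2ax: acaaaGGCCCTTTTAAGGGCCaccac
The motif was searched on the transcript strand only, and 47 of 55450 annotated genes (0.0848%) held it in any transcript. Among the 57 replication-dependent coding genes, 18 had transcripts that end within 100 bases after the stem-loop, as Hist1h2ap does, 3 bases past it. A further 19 had a transcript that runs more than 100 bases past it, as H1f2 does by 840 bases, and 20 had no match in their annotated transcripts. Among the 10 variant coding genes, H2ax alone held the motif, 822 bases before its annotated end. A missing match says only that these letters are not in the annotated transcript.

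The Arid1a cKO libraries came from Gli1-CreER;Arid1a fl/fl mice and the control libraries from Arid1a fl/fl mice, so both groups carry the floxed alleles and the controls lack the recombinase. All mice were C57BL/6 and 6 weeks old, and tamoxifen at 1.5 mg per 10 g body weight was given on 3 days at 1 month of age. Gli1-CreER acts in Gli1-expressing cells and their descendants, whereas the RNA came from all cells of the region. Library totals were 37896883, 37908478 and 29922013 estimated counts in Arid1a cKO replicates 1 to 3, against 32677240, 27324259 and 27300932 in control replicates 1 to 3. Arid1a had 136, 139 and 145 CPM (counts per 1000000 of the TMM-scaled library size) in Arid1a cKO, against 222, 249 and 223 CPM in control. It fell by 0.72 on the log2 scale (SE 0.0677, edgeR quasi-likelihood adjusted p = 0.00802). Whether each library is a mouse of its own is not stated in the labels. The p-values therefore measure only how far these libraries differ, which may be technical.

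Of the 22 genes found by printed symbol, 16 had enough counts to be tested, and 1 of them, H3f3b, passed an adjusted p of 0.05 with edgeR's quasi-likelihood test. Over all 19613 genes tested, 3.96% passed, 1.5% higher and 2.46% lower in Arid1a cKO, so 1 of 16 is near the background. None of the 5 tested Hist genes passed by edgeR, where 1 had an unadjusted p under 0.05, against 4307 of all 19613 genes tested. DESeq2 called 1 of the 5 (Hist1h2ap), against 9.87% of all genes with that tool, 4.24% higher and 5.63% lower. Among all 36 tested histone entries, 22 replication-dependent and 14 variant, H3f3b remained the only call. The median log2 fold change was 0.62 over the 22 replication-dependent genes, 0.11 over the 14 variant ones and 0.00426 over all genes tested. The first of these medians is partly set by the filter on low counts: 7 of the 22 were over the cutoff in all 3 Arid1a cKO libraries and in fewer than 3 control libraries, against 0 of the 14 variant genes. Over the 14 replication-dependent genes above the cutoff in all 6 libraries, the median was 0.28, with 11 positive values. H2bc13 is not among these 14 but is the most extreme of the 7 genes over the cutoff in fewer than 3 control libraries. It had 21, 31 and 13 counts in Arid1a cKO, against 0, 7 and 0 counts in control, and its fitted fold depends on the prior count.

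**Figure D1:**
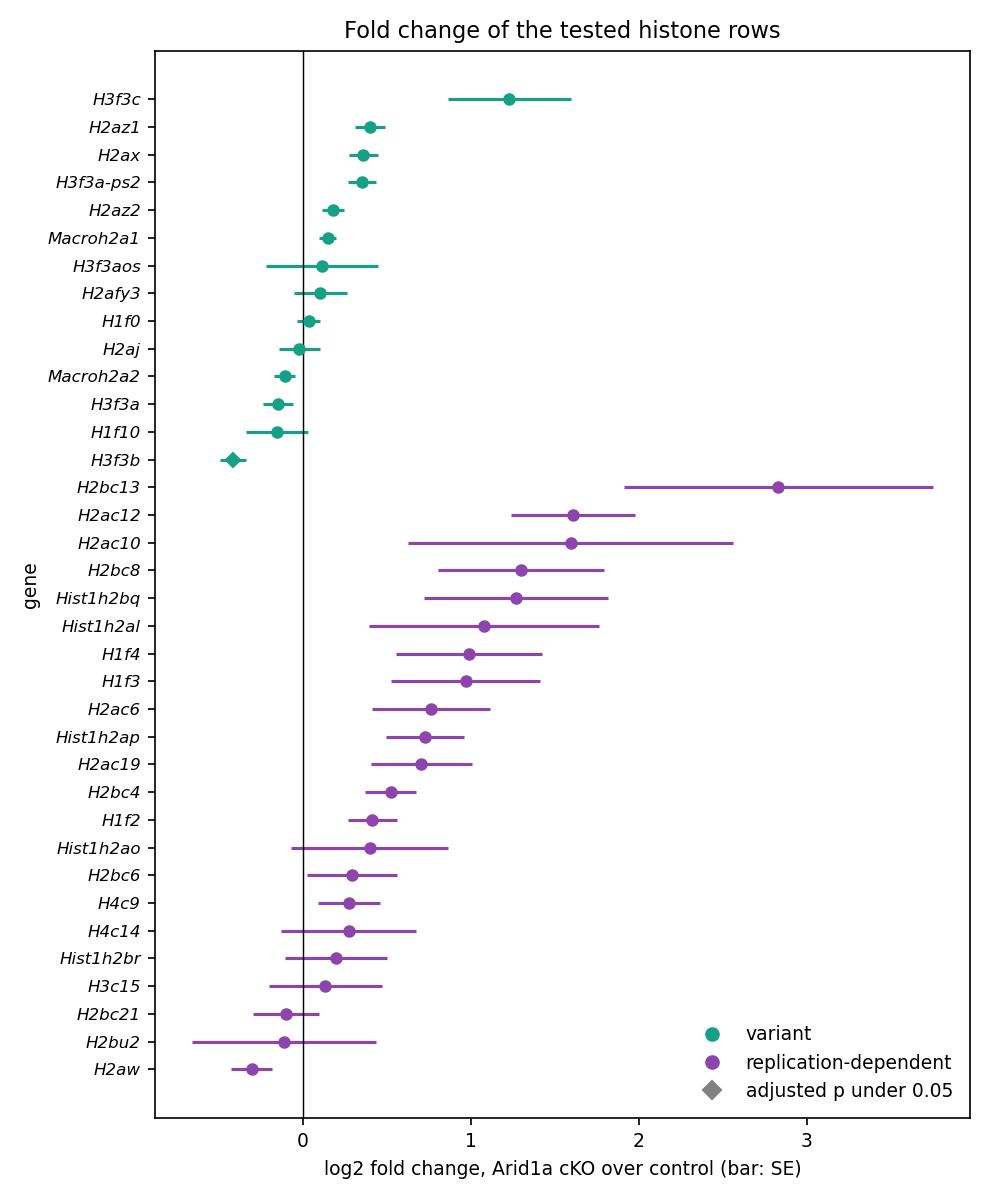
Log2 fold change (Arid1a cKO over control, x axis) with its SE as bars for the 36 tested histone entries, variant genes at the top and replication-dependent ones below. H3f3b at -0.41 is the single diamond (adjusted p under 0.05). H2bc13, over the filter's cutoff in 0 control libraries, lies farthest right with a wide bar.

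H3.3, the replacement form of H3, is encoded by H3f3a and H3f3b, which make the same protein. H3f3b (chr11:116021912-116027962, minus strand, mm10) had 458, 494 and 460 CPM in Arid1a cKO, against 665, 622 and 594 CPM in control. The groups did not overlap, and every Arid1a cKO library was below every control library. H3f3b fell 1.33-fold (log2 fold change -0.41, SE 0.0791, edgeR adjusted p = 0.0343). The adjusted p lay between 0.063 and 0.118 when any 1 of the 6 libraries was left out, with the log2 fold change between -0.45 and -0.36. H3f3a (chr1:180800832-180813943, minus strand) had 356, 411 and 396 CPM in Arid1a cKO, against 464, 425 and 399 CPM in control. Its groups overlapped, since Arid1a cKO replicate 2 was above control replicate 3, and its log2 fold change of -0.15 did not pass (SE 0.0891, adjusted p = 0.372). Summed over both genes, H3.3 transcripts had 814, 905 and 856 CPM in Arid1a cKO, against 1129, 1047 and 994 CPM in control. The summed level was thus lower in all 3 Arid1a cKO libraries, at 0.812 times the control mean.

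The H3f3 copies annotated as processed pseudogenes went the other way. H3f3a-ps2 had 49.1, 51.7 and 50.2 CPM in Arid1a cKO, against 36.2, 37.8 and 44.1 CPM in control (log2 fold change 0.36, SE 0.0827, adjusted p = 0.057). H3f3c had 16.5, 11.3 and 10.5 CPM in Arid1a cKO, against 3.12, 4.86 and 8.40 CPM in control (log2 fold change 1.23, SE 0.368, adjusted p = 0.119). Neither passed by edgeR, although the groups did not overlap in either, and DESeq2 called both (adjusted p = 0.00803 for H3f3a-ps2 and 0.00409 for H3f3c). Reads of these copies are hard to place: 77.7% of the 75-base windows of H3f3a-ps2 and 59.9% of those of H3f3c occur in another annotated gene, which for H3f3c is most often H3f3a. For H3f3b that share is 3.42%. H3f3a-ps1 had at most 0.255 CPM in any library and was not tested. H3f3aos, a non-coding RNA on the strand opposite H3f3a, had 1.33, 3.11 and 2.41 CPM in Arid1a cKO, against 1.94, 2.65 and 1.72 CPM in control, and overlapped between groups (log2 fold change 0.12, adjusted p = 0.875).

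H2A.Z and H2A.X came closest to the threshold among the remaining variant coding genes. H2A.Z marks promoters and is encoded by H2az1 and H2az2. H2az1 (chr3:137864487-137866922) had 87.9, 110 and 93.1 CPM in Arid1a cKO, against 72.0, 77.7 and 71.1 CPM in control. All 3 Arid1a cKO libraries were above all controls, at a log2 fold change of 0.40 (SE 0.0907), and the adjusted p of 0.0537 missed the threshold. It passed with DESeq2 (0.00411), with library size scaling alone (0.0362), with a minimum of 1 CPM in all libraries (0.0471) and without Arid1a cKO replicate 1 (0.0366). H2az2 had 59.5, 54.4 and 56.3 CPM in Arid1a cKO, against 48.5, 53.2 and 48.4 CPM in control, also without overlap (0.18, SE 0.066, adjusted p = 0.165). H2ax, whose product is phosphorylated around DNA breaks, had 68.2, 67.5 and 55.5 CPM in Arid1a cKO, against 47.8, 50.9 and 50.4 CPM in control (0.36, SE 0.0874, adjusted p = 0.0624). Its groups did not overlap either, and it passed with DESeq2 (0.0106) and without Arid1a cKO replicate 3 (0.0471).

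The remaining variant genes showed small differences, none of which passed. Macroh2a1 encodes an H2A with a large macrodomain, found on silent chromatin. It had 106, 104 and 102 CPM in Arid1a cKO, against 95.0, 94.6 and 91.2 CPM in control (log2 fold change 0.15, SE 0.0518, adjusted p = 0.145), with no overlap between groups. Macroh2a2, its paralog, had 69.4, 73.7 and 72.0 CPM in Arid1a cKO, against 78.9, 80.2 and 72.4 CPM in control. Its log2 fold change was -0.11 (SE 0.0613, adjusted p = 0.353), and Arid1a cKO replicate 2 lay above control replicate 3. H1f0, the linker histone of slowly dividing and differentiated cells, averaged 248 ± 14.0 CPM in Arid1a cKO and 242 ± 5.74 CPM in control (SD, n = 3 each). The log2 fold change of H1f0 was 0.04 (SE 0.067, adjusted p = 0.80). H1f10, another replication-independent linker histone, averaged 39.4 ± 5.63 CPM in Arid1a cKO and 43.8 ± 10.0 CPM in control (-0.15, SE 0.185, adjusted p = 0.689). H2aj averaged 23.5 ± 2.27 CPM in Arid1a cKO and 23.8 ± 3.40 CPM in control (-0.02, SE 0.121, adjusted p = 0.95), a difference whose sign changed between scalings. The pseudogene H2afy3 stood at 2.88 ± 0.107 CPM in Arid1a cKO and 2.68 ± 0.165 CPM in control (adjusted p = 0.747).

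**Figure D2:**
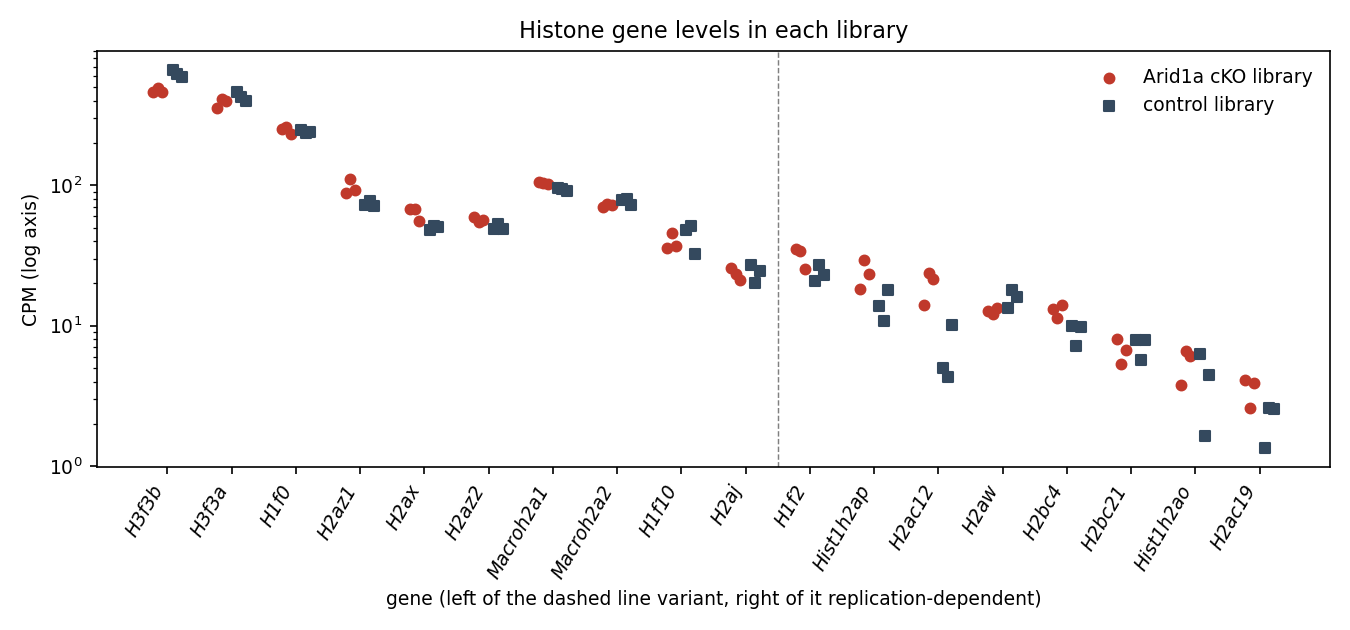
CPM on a log axis in each library for 10 variant genes (left of the dashed line) and 8 replication-dependent genes (right), circles for Arid1a cKO and squares for control. The circles of H3f3b lie below its squares, those of H2az1, H2ax and H2ac12 lie above theirs, and H1f0 and H2aj overlap.

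Among the replication-dependent genes that averaged over 10 CPM, the H2A genes H2ac12 and Hist1h2ap of the chromosome 13 cluster had the largest fold changes. Hist1h2ap (chr13:21833026-21833507, minus strand) had 18.3, 29.1 and 23.2 CPM in Arid1a cKO, against 13.8, 10.7 and 18.0 CPM in control. The groups were separate by a small gap, and the log2 fold change was 0.73 (SE 0.232, edgeR adjusted p = 0.131; DESeq2 0.0152). H2ac12 (formerly Hist1h2ah, chr13:22035164-22035568, minus strand) had 14.0, 23.7 and 21.3 CPM in Arid1a cKO, against 4.97, 4.31 and 10.1 CPM in control. Its groups did not overlap, with a log2 fold change of 1.61 (SE 0.367, adjusted p = 0.0684). H2ac12 passed with DESeq2 (1.73e-05), with limma-voom (0.0485), in the deposited normalized values tested by limma (0.0439 at a pseudocount of 1) and without control replicate 3 (0.0348). Hist1h2ao overlapped between groups at 3.80, 6.58 and 6.10 CPM in Arid1a cKO, against 6.31, 1.63 and 4.49 CPM in control (0.40, adjusted p = 0.673). H2aw, formerly Hist3h2a, went lower without passing, at 12.7, 12.05 and 13.3 CPM in Arid1a cKO, against 13.3, 17.8 and 15.9 CPM in control (-0.30, SE 0.12, adjusted p = 0.192). The groups of H2aw overlapped only in that Arid1a cKO replicate 3 lay just above control replicate 1.

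Values of single genes are uncertain where copies share much of their sequence. A median of 42.0% of the 75-base windows of a replication-dependent coding gene occurred in another gene, against 6.03% for the variant coding genes. Over 50% were shared in 25 of 57 against 0 of 10. The pair H2ac18 and H2ac19 shows what this does. H2ac19 alone had 4.10, 2.599 and 3.89 CPM in Arid1a cKO, against 1.34, 2.61 and 2.56 CPM in control (log2 fold change 0.71, adjusted p = 0.22). H2ac18, which lies close to it on chromosome 3 and shares all 75-base windows of H2ac19, had 0.306, 0.190 and 0.198 CPM in Arid1a cKO, against 3.09, 0.181 and 1.50 CPM in control. Summed, the pair had 4.41, 2.79 and 4.09 CPM in Arid1a cKO, against 4.43, 2.79 and 4.05 CPM in control. The difference in H2ac19 thus disappeared in the sum, whose group means had a ratio of 1.00.

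The same sum was taken over every set of histone entries in which linked copies share over 50% of each other's windows, a rule chosen after the values were seen. It gave 4 sets with 15 entries. A set of 9 H2A genes, among them Hist1h2ap, Hist1h2ao and H2ac12, had 37.5, 62.6 and 52.9 CPM in Arid1a cKO, against 25.4, 18.0 and 33.5 CPM in control. This set was the only one of the 4 without overlap, at 1.99 times the control mean. Among all single genes tested, 13.8% were likewise higher in Arid1a cKO without overlap. Hist1h2bq and Hist1h2br together had 4.05, 3.11 and 2.04 CPM in Arid1a cKO, against 1.15, 2.21 and 2.59 CPM in control, and overlapped. So did H3c10 and H3c11, at 0.280, 0.623 and 0.363 CPM in Arid1a cKO, against 0.0638, 0.290 and 0.292 CPM in control. Sharing with genes outside the histones was not summed.

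H1f2 and H2bc4 share fewer windows with other genes, 6.66% and 27.1%. H1f2, the most abundant replication-dependent H1, had 35.2, 33.9 and 25.5 CPM in Arid1a cKO, against 20.9, 27.04 and 23.1 CPM in control. The groups overlapped, Arid1a cKO replicate 3 lying below control replicate 2 (log2 fold change 0.42, SE 0.144, adjusted p = 0.152). H1f3 and H1f4 were under 1 CPM in every library, with log2 fold changes of 0.97 and 0.99 and adjusted p of 0.253 and 0.232, and H1f1 and H1f5 were too low to test. H2bc4 had 13.2, 11.4 and 14.1 CPM in Arid1a cKO, against 9.88, 7.18 and 9.86 CPM in control, with no overlap (0.52, SE 0.151, edgeR adjusted p = 0.096; DESeq2 0.0301). H2bc21 overlapped (8.03, 5.31 and 6.76 CPM in Arid1a cKO, against 7.90, 5.65 and 7.96 CPM in control), as did H2bc6 and H2bu2. H3 and H4 genes were barely detected: 3 of 22 could be tested, and H4c9, the highest of them, had 1.86, 1.92 and 1.78 CPM in Arid1a cKO, against 1.50, 1.45 and 1.64 CPM in control. H4c9 did not overlap between groups, and its log2 fold change of 0.28 did not pass (SE 0.186, adjusted p = 0.421). H3c15 and H4c14 averaged under 1 CPM, with log2 fold changes of 0.14 and 0.27. The next most abundant were H3c2, H3c3, H3c4 and H3c10 of H3 and H4c4, H4c8 and H4c12 of H4, which were at 0.487 CPM or less in every library and could not be tested. The 36 replication-dependent coding genes that could not be tested held 1202 counts in all 6 libraries together.

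Per length, replication-dependent genes were far below the variants in these libraries. Poly(A) selection is not given in the sources, so low abundance and poor capture of mRNAs without a poly(A) tail cannot be told apart. The median level, as CPM per kilobase of the longest annotated transcript, was 37.6 over the 10 variant coding genes, with H3f3b the highest at 218 and H2aj the lowest at 12.9. It was 0.312 for the replication-dependent genes that end near the stem-loop, 0.382 for those with no match and 0.204 for those that run past it. The highest of each kind were Hist1h2ap at 39.2, H2ac12 at 32.3 and H1f2 at 17.7 CPM per kilobase. Replication-dependent H3 genes together made up 0.235%, 0.335% and 0.328% of the counts of H3f3a plus H3f3b in Arid1a cKO, against 0.0847%, 0.190% and 0.202% in control.

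**Figure D3:**
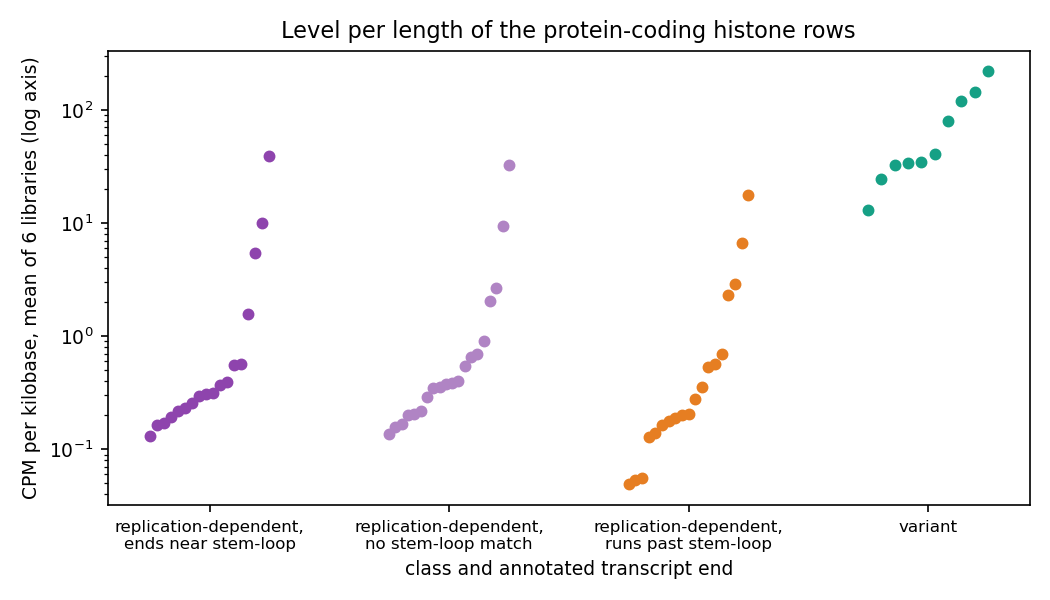
Level per length (CPM per kilobase, mean of the 6 libraries, log axis) of each of the 57 replication-dependent and 10 variant protein-coding genes, by annotated transcript end. The variant points lie between 12.9 and 218, and most replication-dependent points lie below 1, with Hist1h2ap, H2ac12 and H1f2 on top.

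The classes were then compared as sums, which need no filter on low counts. The 57 replication-dependent coding genes together had 128, 148 and 134 CPM in Arid1a cKO, against 90.7, 93.0 and 108 CPM in control. The groups did not overlap, and the ratio of means was 1.40. Within these sums, which averaged 137 CPM in Arid1a cKO and 97.3 CPM in control, the set of 9 H2A genes above held much of the difference. That set averaged 51.0 CPM in Arid1a cKO and 25.6 CPM in control. The 10 variant coding genes had 1520, 1643 and 1525 CPM in Arid1a cKO, against 1794, 1711 and 1625 CPM in control. They overlapped, at a ratio of means of 0.914, with H3f3a and H3f3b making up most of the sum. The log2 ratio of the replication-dependent to the variant sum was -3.57, -3.47 and -3.51 in Arid1a cKO, against -4.31, -4.20 and -3.91 in control, a mean difference of 0.62 without overlap. The 8 genes with a printed Hist symbol gave the same order of groups, at 27.4, 42.4 and 33.4 CPM in Arid1a cKO, against 21.5, 15.8 and 26.4 CPM in control. These sums were chosen with earlier results known and carry no test. Of all genes tested, 13.8% had groups that did not overlap and were higher in Arid1a cKO, and 15.3% did so on the lower side.

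By histone type, the replication-dependent H2A genes summed to 55.6, 78.2 and 71.1 CPM in Arid1a cKO, against 43.6, 39.1 and 54.2 CPM in control, a ratio of means of 1.50. H2B genes summed to 30.5, 25.01 and 28.7 CPM in Arid1a cKO, against 21.8, 20.3 and 24.7 CPM in control, a ratio of 1.26. Neither type overlapped between groups. H1 genes overlapped (36.1, 36.1 and 27.3 CPM in Arid1a cKO, against 21.6, 28.2 and 23.7 CPM in control), and so did H3 genes. H4 genes, at 3.59, 5.66 and 4.16 CPM in Arid1a cKO, against 2.80, 3.48 and 3.36 CPM in control, were separate at very low levels.

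The size of the difference varied with the annotated end. Genes that end near the stem-loop summed to 28.5, 42.2 and 35.8 CPM in Arid1a cKO, against 25.8, 17.1 and 28.1 CPM in control, a ratio of 1.50 with a narrow gap between groups. Genes with no match summed to 42.1, 49.4 and 48.2 CPM in Arid1a cKO, against 24.5, 22.1 and 32.1 CPM in control, a ratio of 1.77. Genes that run past the stem-loop, and so include a longer 3′ region, summed to 57.1, 56.4 and 50.1 CPM in Arid1a cKO, against 40.3, 53.8 and 47.8 CPM in control. These last overlapped between groups, at a ratio of 1.15. Genes with under 50% of their windows shared had a ratio of 1.18 (79.3, 74.6 and 72.4 CPM in Arid1a cKO, against 58.4, 67.7 and 66.0 CPM in control). The kinds of end differ in window sharing and in which genes dominate them, and the difference between kinds was not tested.

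Ribosomal RNA, like replication-dependent histone mRNA, has no poly(A) tail. The ribosomal RNA gene CT010467.1 took 1.89%, 7.47% and 4.12% of the counts in Arid1a cKO, against 0.864%, 1.01% and 1.05% in control. All 3 Arid1a cKO libraries were above all controls and differed widely among themselves (log2 fold change 2.20, SE 0.497, edgeR adjusted p = 0.0667; DESeq2 0.00152). The summed replication-dependent coding genes ranked the 6 libraries in the same order as CT010467.1, with Arid1a cKO replicate 2 highest, then 3, then 1, then control replicates 3, 2 and 1. The genes that end near the stem-loop, those with no match and the genes printed as Hist placed the Arid1a cKO libraries likewise, but control replicate 1 above control replicate 2. The genes that run past the stem-loop differed more, with Arid1a cKO replicate 1 highest and control replicate 2 above Arid1a cKO replicate 3. The ranges differed as well: CT010467.1 in Arid1a cKO replicate 2 was 2.96 log2 units above the control mean, whereas the genes that end near the stem-loop were 0.83 above it. Relative to CT010467.1, the replication-dependent sum was lower in all 3 Arid1a cKO libraries, at 0.701%, 0.193% and 0.330% of its level, against 1.01%, 0.931% and 1.03% in control. With the level of CT010467.1 as a covariate, the median log2 fold change was 0.34 over the 22 replication-dependent genes, against 0.62 without it, and 0.05 over the 5 Hist genes, against 0.73 without it. This covariate (log2 CPM) was 14.2, 16.2 and 15.3 in Arid1a cKO, against 13.1, 13.3 and 13.4 in control. It separates the genotypes, so these medians cannot divide the rRNA level from the genotype. The fit has 4 residual degrees of freedom before the covariate, and with it 72 genes were called higher and 79 lower in the whole table, of which 17 and 37 were also called without it.

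Other RNAs that lack a poly(A) tail were set beside these. Of 12 listed ones in the table, 7 were tested and none passed by edgeR. With edgeR, 2 of the 7 had an unadjusted p under 0.05, against 4307 of all 19613 genes tested. DESeq2 called 1 of the 7 higher, against 4.24% of all genes. The median log2 fold change of the 7 was 0.06, with 4 positive and 3 negative values. Rn7s1 and Rn7s2, which make up 2 of the 3 negative values, were identical in every library (-0.061 each) and so are 1 measurement counted 2 times. The listed RNAs summed to 41.0, 112 and 86.3 CPM in Arid1a cKO, against 37.95, 35.6 and 36.6 CPM in control, a sum made up mostly of Rn7sk, the RNA that holds back the elongation factor P-TEFb. Rn7sk alone had 31.8, 97.9 and 74.9 CPM in Arid1a cKO, against 22.2, 25.5 and 28.6 CPM in control (log2 fold change 1.42, SE 0.415, adjusted p = 0.125). The 5.8S entry n-R5-8s1 rose 4.34-fold, at 4.21, 9.66 and 6.70 CPM in Arid1a cKO, against 0.860, 1.99 and 1.90 CPM in control (edgeR adjusted p = 0.0402). It was the 1 edgeR call among 5 tested rRNA genes, against 1.5% of all genes called higher. DESeq2 called 4 of these 5 higher and 0 lower, against 4.24% of all genes higher. In these 6 libraries, the rRNA share and the genotype cannot be told apart as sources of the replication-dependent difference.

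S phase genes were higher in Arid1a cKO as a list. Of 37 genes, 14 rose, 0 fell and the median log2 fold change was 0.43, against 1.5% of all genes called higher. Pcna, the sliding clamp of DNA polymerase, had 61.2, 63.1 and 60.3 CPM in Arid1a cKO, against 47.3, 46.9 and 46.5 CPM in control (log2 fold change 0.39, SE 0.0528, edgeR adjusted p = 0.0142). Tk1, thymidine kinase, had 24.8, 22.7 and 21.5 CPM in Arid1a cKO, against 15.9, 14.1 and 15.2 CPM in control (0.61, SE 0.0877, adjusted p = 0.0163). Mcm7, Rrm1 and Uhrf1 also rose, with log2 fold changes of 0.37, 0.43 and 0.51. The list summed to 1565, 1570 and 1403 CPM in Arid1a cKO, against 1192, 1139 and 1167 CPM in control. Relative to this sum, the replication-dependent coding genes stood at 8.16%, 9.42% and 9.56% in Arid1a cKO, against 7.61%, 8.17% and 9.26% in control, and overlapped. H2ax, H2az1 and H2az2 together stood at 13.8%, 14.8% and 14.6% of it in Arid1a cKO, against 14.1%, 15.96% and 14.6% in control, and overlapped too. In bulk RNA, more cells in S phase and more of these transcripts per cell cannot be told apart.

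**Figure D4:**
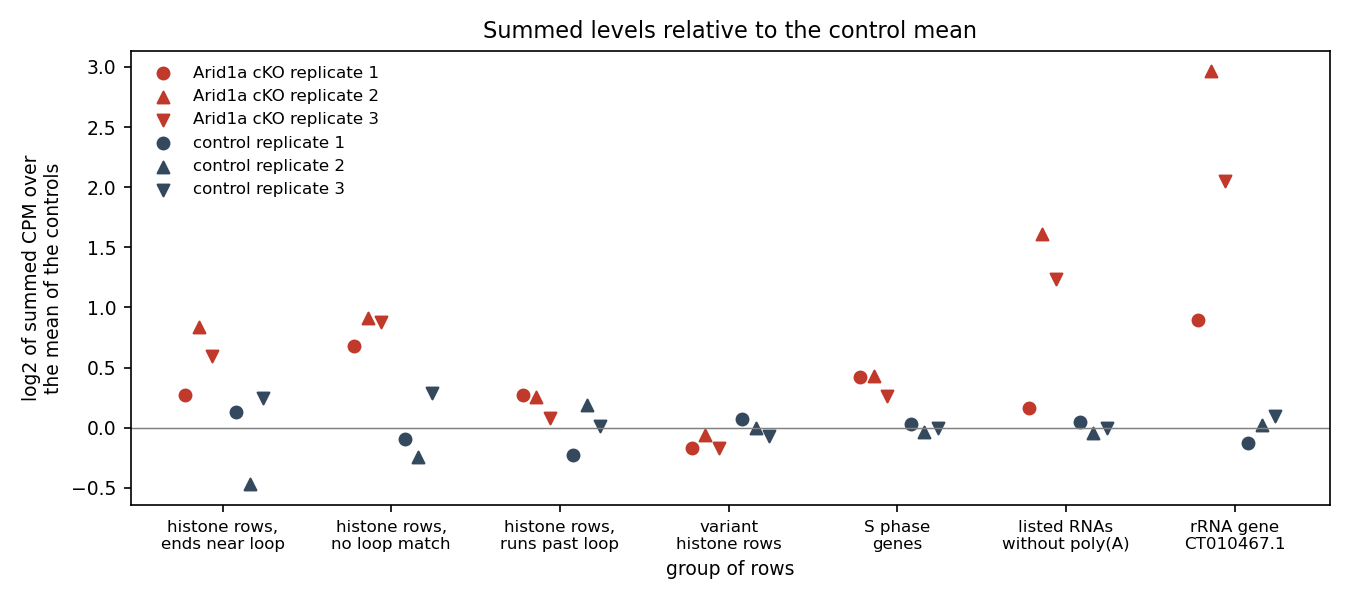
Log2 of the summed CPM over the control mean (y axis) for each library in 3 kinds of replication-dependent histone genes, the variant coding genes, S phase genes, listed RNAs without a poly(A) tail and CT010467.1, with Arid1a cKO in red left of control in dark blue. CT010467.1 spreads from 0.89 to 2.96 over the Arid1a cKO libraries, S phase genes from 0.27 to 0.43, and the histone genes that run past the stem-loop from 0.08 to 0.27.

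Factors that handle histones were compared as lists. Of 26 genes of histone transcription and 3′ end processing, 0 passed in either direction by edgeR, with a median log2 fold change of -0.01. With edgeR, 4 of the 26 had an unadjusted p under 0.05, against 4307 of all 19613 genes tested. DESeq2 called 1 of the 26 lower, against 5.63% of all genes. Slbp, which binds the stem-loop, had 54.0, 59.8 and 52.0 CPM in Arid1a cKO, against 52.5, 52.3 and 51.6 CPM in control (0.08, SE 0.0668, edgeR adjusted p = 0.503). Npat, the activator of replication-dependent histone transcription, did not pass (-0.14, adjusted p = 0.32). Of 33 histone chaperones and deposition factors, 2 rose and 0 fell by edgeR, against 1.5% of all genes called higher, with a median of 0.14. DESeq2 called 8 of the 33 higher and 0 lower, against 4.24% of all genes higher. Nasp, a chaperone that keeps a reserve of H3 and H4, had 79.9, 79.0 and 75.2 CPM in Arid1a cKO, against 64.7, 62.3 and 65.0 CPM in control (0.29, SE 0.0546, adjusted p = 0.0341). Dnajc9, an H3-H4 co-chaperone, had 56.9, 55.0 and 51.9 CPM in Arid1a cKO, against 43.6, 41.8 and 45.3 CPM in control (0.33, SE 0.0632, adjusted p = 0.0348). Both were higher in all 3 Arid1a cKO libraries. Hira, which deposits H3.3 outside replication, stood at 0.03 (adjusted p = 0.895), and Cenpa, the centromeric H3 variant, 0.36 (SE 0.119, adjusted p = 0.136).

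Cell type markers were checked beside the histone results. Dental mesenchyme markers were all 20 present and summed to 29754 to 32285 CPM in Arid1a cKO, against 19622 to 42804 CPM in control. Of them 0 rose and 2 fell, Gli1 (log2 fold change -0.52, edgeR adjusted p = 0.0162) and Msx2 (-0.49, 0.0194), against 2.46% of all genes called lower. Only the Arid1a cKO mice carried Gli1-CreER, so effects of this driver and of the deletion on Gli1 cannot be told apart. The 18 dental epithelium markers summed to 1654 to 3392 CPM in Arid1a cKO, against 1514 to 4990 CPM in control, with Epcam the 1 of 18 called higher (0.47, 0.0199), against 1.5% of all genes, and 0 called lower. Summed markers of erythroid cells (56.6 to 343 CPM in Arid1a cKO, against 40.7 to 136 CPM in control) and macrophages (643 to 1020 CPM in Arid1a cKO, against 527 to 749 CPM in control) overlapped as well. So did those of neutrophils (22.2 to 51.2 CPM in Arid1a cKO, against 7.81 to 27.8 CPM in control), endothelium (588 to 867 CPM in Arid1a cKO, against 595 to 698 CPM in control) and muscle (6.12 to 7.19 CPM in Arid1a cKO, against 4.02 to 41.4 CPM in control). All tested markers of macrophages (12), erythroid cells (5) and neutrophils (3) had positive log2 fold changes, against 9957 of all 19613 genes. Their medians were 0.36, 0.72 and 0.45. Endothelium had 7 positive and 5 negative values (median 0.020), and muscle 1 and 4 (median -1.40). DESeq2 called 0 genes of these lists. It called 4 of 20 mesenchyme markers lower and 0 higher, and 3 of 18 epithelium markers higher and 0 lower. Of all genes it called 4.24% higher and 5.63% lower. The part of cell types in the histone values was not tested.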

How the data were processed

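Total RNA was sequenced as single-end reads of 75 cycles, per the labels' protocols. STAR 2.6.1d, Partek and the build mm10 are named per the submitters' processing notes. Annotation release, library kit, strand, poly(A) selection and rRNA removal: not given in the sources used here. The estimated counts that the authors deposited were rounded here. Their second deposited table holds normalized signal values of 21456 genes, in which each deposited value equals the count plus 1 divided by 1 factor per library (largest deviation 0.000674%). Genes were kept by filterByExpr (minimum count 10). Library sizes were scaled by TMM (factors 0.961 to 1.04), and genotypes were compared over the whole table by the quasi-likelihood F test (two-sided, no covariate, Benjamini-Hochberg over 19613 genes, threshold 0.05). The SE of a fold change was taken as its absolute log2 value over the root of the F statistic. Replicates varied by 15.8% (common biological coefficient of variation). Tools were edgeR 4.0.16, DESeq2 1.42.0 and limma 3.58.1 in R 4.3.3, with pandas 2.3.3 and matplotlib 3.10.9 in Python 3.11.15. The count test was tested on simulated counts.

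Older symbols came from RefSeq synonyms. All 73 entries matched GENCODE M21 by position. The deposited stop lies 1 base past the annotated end in 99.6% of the matched entries, and the text gives annotated ends. Replicate numbers follow accession order and only name libraries. The members and gene lists were chosen with earlier results of these data known. Named were every histone gene past the threshold, the 5 most abundant replication-dependent genes of each type, every tested variant gene, up to 5 called members of each list, Arid1a and CT010467.1. Hist1h2bq, H2ac18, Hist1h4m, H2bc13, Rn7sk, Slbp, Npat, Hira, Cenpa and H3c11 were named after their values were seen. The division by older symbol, by shared windows and by transcript end was also chosen after seeing the data. Genes that overlap another gene are uncertain, among them H3f3a (H3f3aos), H1f0 (Gm49544), Macroh2a1 (Gm47071) and Macroh2a2 (Aifm2) on the opposite strand, and H2aw (Trim17) and H1f4 (H2bc6) on the same strand.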

Additional observations from a re-analysis of the deposited data

How the results depend on the processing

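H3f3b kept its direction in 21 alternatives and its call in 13. It lost the call without each library and with CT010467.1 (-0.50, adjusted p = 0.137) or the S phase genes (-0.56, 0.967) as a covariate, where the lower count of the genes not printed as Hist, and of all variant genes, was 0. That count was also 0 without any 1 library. DESeq2 called more: 1 Hist gene, 2 of the genes not printed as Hist, 3 replication-dependent and 4 variant genes higher, and 831 genes higher and 1104 lower in all. Replication-dependent genes had 1 higher call with no filter, limma-voom, the authors' table at each pseudocount or the covariate of RNAs without a poly(A) tail. Variant genes had 1 with library size alone, a minimum of 1 CPM or that covariate, as did the genes not printed as Hist with that covariate. Without 1 library, higher calls were 0 to 1 in these groups, lower replication-dependent calls 0 to 1, and calls over all genes 55 to 193 higher and 98 to 339 lower. Over all genes, calls were 72 higher and 79 lower with the CT010467.1 covariate, 807 and 994 with that of RNAs without a poly(A) tail, and 0 and 0 with S phase genes. The S phase covariate (mean log2 CPM of the list) was 5.10, 5.10 and 4.92 in Arid1a cKO, against 4.69, 4.60 and 4.66 in control. It nearly follows the genotype, so a fit with it cannot tell the list from the genotype. The cause was not tested.

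The median log2 fold change of Hist genes was 0.73 as reported, over 5 genes. It was 1.18 with no filter (8 genes), 0.17 with the authors' table at a pseudocount of 5 (7 genes) and 0.055 with the CT010467.1 covariate (5 genes). That covariate turned the median of the genes not printed as Hist from 0.12 to -0.32 (without 1 library 0.066 to 0.33). It gave 0.34 for the 22 replication-dependent genes tested. With the authors' table at pseudocounts of 1, 0.5 and 5, their median was 0.15, 0.21 and 0.036, but over 43 genes. The values of that table are counts plus 1 divided by 33.5 to 47.8, so the pseudocounts shrink the fold changes of low-count genes. The median of variant genes was 0.072 with limma-voom, 0.072, 0.083 and 0.044 with the authors' table, 0.085 and 0.0040 with the covariates of RNAs without a poly(A) tail and of S phase genes, and 0.070 to 0.14 without 1 library. CT010467.1 passed with DESeq2 (2.20) and without Arid1a cKO replicate 1, and ranged from 1.58 to 2.58 without 1 library. Its value with itself as covariate has no meaning and is not given, and it has none with rRNA genes left out. With library size scaling alone, the ratio of summed replication-dependent genes was 1.43, against 1.20 for genes with few shared windows and 1.17 for those that run past the stem-loop, and 1.36 to 1.52 without 1 library.

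None of the genes that reversed had passed. With the CT010467.1 covariate these were H1f3 (-0.32), H1f4 (-0.36), H2aj (0.15), H2bc21 (0.44), H2bu2 (0.99), H3c15 (-0.25), H3f3aos (-1.13), H4c14 (-1.06) and Hist1h2ao (-0.31). With that of RNAs without a poly(A) tail they were H2bc21 (0.062), H2bu2 (0.58), H3f3aos (-0.42), H4c14 (-0.10) and Hist1h2ao (-0.063). With that of S phase genes, which nearly follows the genotype, they were H1f0 (-0.27), H1f2 (-0.13), H2aw (0.17), H2ax (-0.12), H2bc6 (-0.44), H2bu2 (2.44) and Hist1h2ao (-0.21). H2aj reversed with upper quartile scaling (0.0024), library size (0.010) and the authors' table (0.0035, 0.0037 and 0.0023). Without 1 library, the ranges were H2aj -0.11 to 0.085, H2bc21 -0.25 to 0.044, H2bu2 -0.53 to 0.31, H3c15 -0.13 to 0.36, H3f3aos -0.18 to 0.40, H4c14 -0.025 to 0.57 and Hist1h2br -0.052 to 0.36. Low counts kept 36 of 57 replication-dependent coding genes out of the test, and no alternative varied the depth. No paired analysis was possible because the sample titles of the genotypes share fewer than 2 numbers and the replicate numbers follow accession order.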
